A study of Mus musculus with 29 samples.

Results

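*Plin1*, *Plin2*, *Plin3*, *Plin4*, *Cidec*, *G0s2*, *Pnpla2*, *Lipe*, *Mgll* and *Abhd5* encode proteins that coat the lipid droplet or release fatty acids from the fat inside it. The 10 genes were chosen by name and matched through their Ensembl identifiers to the counts of the series, where all 10 were present among 11959 genes. RNA-seq was performed on 3T3-L1 cells, a mouse preadipocyte line of fibroblast origin that turns into fat-storing adipocytes when given hormones. Cells received DMSO (vehicle) or 10 µM KDM5-C70 (C70), an inhibitor of the KDM5 enzymes that remove methyl groups from lysine 4 of histone H3, from confluence at day −2 until day 0. All groups were in preadipocyte medium until day 0, in differentiation medium from day 0 to day 2 and in adipocyte medium after that, and no group was given C70 after day 0. Cells were collected at days 0, 1, 2 and 7, with 3 vehicle samples at each of days 0, 1 and 2, 4 vehicle samples at day 7, and 4 C70 samples at every day, which makes 29 samples in 8 groups. The line is a single cell line, and the labels do not say whether replicates came from separate cultures, so P values measure the spread between these samples, which may be technical.

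An adipocyte stores triglyceride in a droplet wrapped by perilipins, and the coat decides which enzymes reach the fat. PLIN1 is the perilipin of mature adipocytes and holds back lipolysis until it is phosphorylated, PLIN2 and PLIN3 coat droplets in most cell types, PLIN4 joins the coat of nascent droplets in fat cells, and CIDEC drives the fusion and growth of droplets. Lipolysis then runs through ATGL (*Pnpla2*), hormone-sensitive lipase (*Lipe*) and monoglyceride lipase (*Mgll*) in turn, with ABHD5 as the activator and G0S2 as the inhibitor of ATGL.

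Each library held between 16320275 and 24037170 counts, and levels are given as CPM, the count of a gene scaled by the TMM-corrected total of its library. A gene was called changed when its adjusted P was under 0.05 in edgeR's quasi-likelihood test and its log2 fold change was beyond 0.322 in either direction (the fold threshold). One library stood apart. Replicate 1 of day 7 vehicle deviated from its group mean by 0.317 (root mean square, log2) over all genes, against 0.176 to 0.217 for the other day 7 vehicle samples and 0.125 to 0.181 for all samples of other groups. The day 7 log2 fold changes are therefore also given without it. The labels call every sample an adipocyte, but at day 0 a list of 10 adipocyte markers summed to between 1292 and 1413 CPM in vehicle and a list of 8 preadipocyte or fibroblast markers to between 22237 and 22950 CPM. By day 7 these sums were 24278 to 28951 CPM and 2869 to 3825 CPM. At day 0 in vehicle *Lpl* made up most of the adipocyte sum (mean 1237 CPM). *Col1a1* and *Col3a1* made up most of the other sum (means 10696 and 6022 CPM). Of the other cell types checked, 0 of 4 endothelial and 0 of 4 epithelial markers were among the genes of the table.

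Promoter sequences are shown for *Plin1*, *Cidec*, *G0s2* and *Mgll*, because these 4 genes had the lowest levels per kb in vehicle preadipocytes and 3 of them, all but *Plin1*, were lower with C70 at day 2. Each is the RefSeq window of 300 bases on GRCm38.p6, from 250 bases before to 50 after the transcription start, written 5′ to 3′ on the strand of the gene. Capitals mark matches to the motifs named after the sequences. The *Plin1* window is at chr7:79732727-79733026 on the minus strand, the *Cidec* window at chr6:113434715-113435014 on the minus strand (1 of 2 listed starts), the *G0s2* window at chr1:193273139-193273438 on the minus strand and the *Mgll* window at chr6:88724162-88724461 on the plus strand (1 of 2 listed starts).
Plin1: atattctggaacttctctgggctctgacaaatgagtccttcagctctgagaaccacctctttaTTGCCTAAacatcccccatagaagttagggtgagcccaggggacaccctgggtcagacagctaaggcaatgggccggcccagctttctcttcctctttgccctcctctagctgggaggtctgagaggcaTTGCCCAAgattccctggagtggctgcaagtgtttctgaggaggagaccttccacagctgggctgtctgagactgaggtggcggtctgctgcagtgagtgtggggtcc
Cidec: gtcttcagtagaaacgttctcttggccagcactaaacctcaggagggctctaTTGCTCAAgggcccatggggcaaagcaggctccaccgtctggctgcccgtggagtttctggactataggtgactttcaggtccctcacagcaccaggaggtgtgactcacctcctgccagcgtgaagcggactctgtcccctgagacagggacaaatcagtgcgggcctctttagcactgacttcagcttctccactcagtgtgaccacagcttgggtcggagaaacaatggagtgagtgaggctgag
G0s2: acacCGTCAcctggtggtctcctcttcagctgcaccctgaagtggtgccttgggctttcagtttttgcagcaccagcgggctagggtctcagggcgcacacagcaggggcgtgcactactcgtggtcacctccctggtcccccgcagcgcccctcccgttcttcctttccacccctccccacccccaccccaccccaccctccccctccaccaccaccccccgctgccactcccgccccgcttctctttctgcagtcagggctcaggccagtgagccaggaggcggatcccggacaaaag
Mgll: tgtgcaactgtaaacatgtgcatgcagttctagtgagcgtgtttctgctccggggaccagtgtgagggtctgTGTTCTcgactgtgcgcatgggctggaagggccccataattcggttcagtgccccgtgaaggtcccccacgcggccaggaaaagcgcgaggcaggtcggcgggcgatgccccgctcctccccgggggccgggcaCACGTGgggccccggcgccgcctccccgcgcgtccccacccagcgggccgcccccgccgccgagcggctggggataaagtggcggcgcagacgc

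The windows of all 10 genes (13 windows, since *Cidec*, *Lipe* and *Mgll* have 2) were searched on both strands for 8 motifs. The C/EBP motif TTGCNNAA was found at −187 and −58 from the *Plin1* start and at −198 from the *Cidec* start shown, and 10.8% of 32851 mouse promoters of the same length hold it. The E box CACGTG, found in 7.15% of promoters, was in the windows of *Mgll* (at −44), *Plin2* (at −4) and *Lipe* (at −155). The short form of the cyclic AMP response element, TGACG (20.8% of promoters), was in the windows of *G0s2*, *Abhd5* and the *Mgll* start not shown (at 20), the nuclear receptor core site AGGTCA (16.3%) in those of *Plin2* and *Abhd5*, and the glucocorticoid receptor core site AGAACA (18.97%) in that of *Mgll*. The DR1 element bound by PPARG and RXRA, which is a repeat of AGGTCA (0.04% of promoters), the full element TGACGTCA, which contains TGACG (1.79%), and TATAAA (13.6%) had no match in any of the 13 windows. Among the windows shown, *Plin1* held 2 CpG dinucleotides, *Cidec* 7, *G0s2* 13 and *Mgll* 32, against a median of 7 over all promoters. The *Mgll* start not shown held 42. These matches describe letters in a window and were not tested as binding sites.

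**Figure D1:**
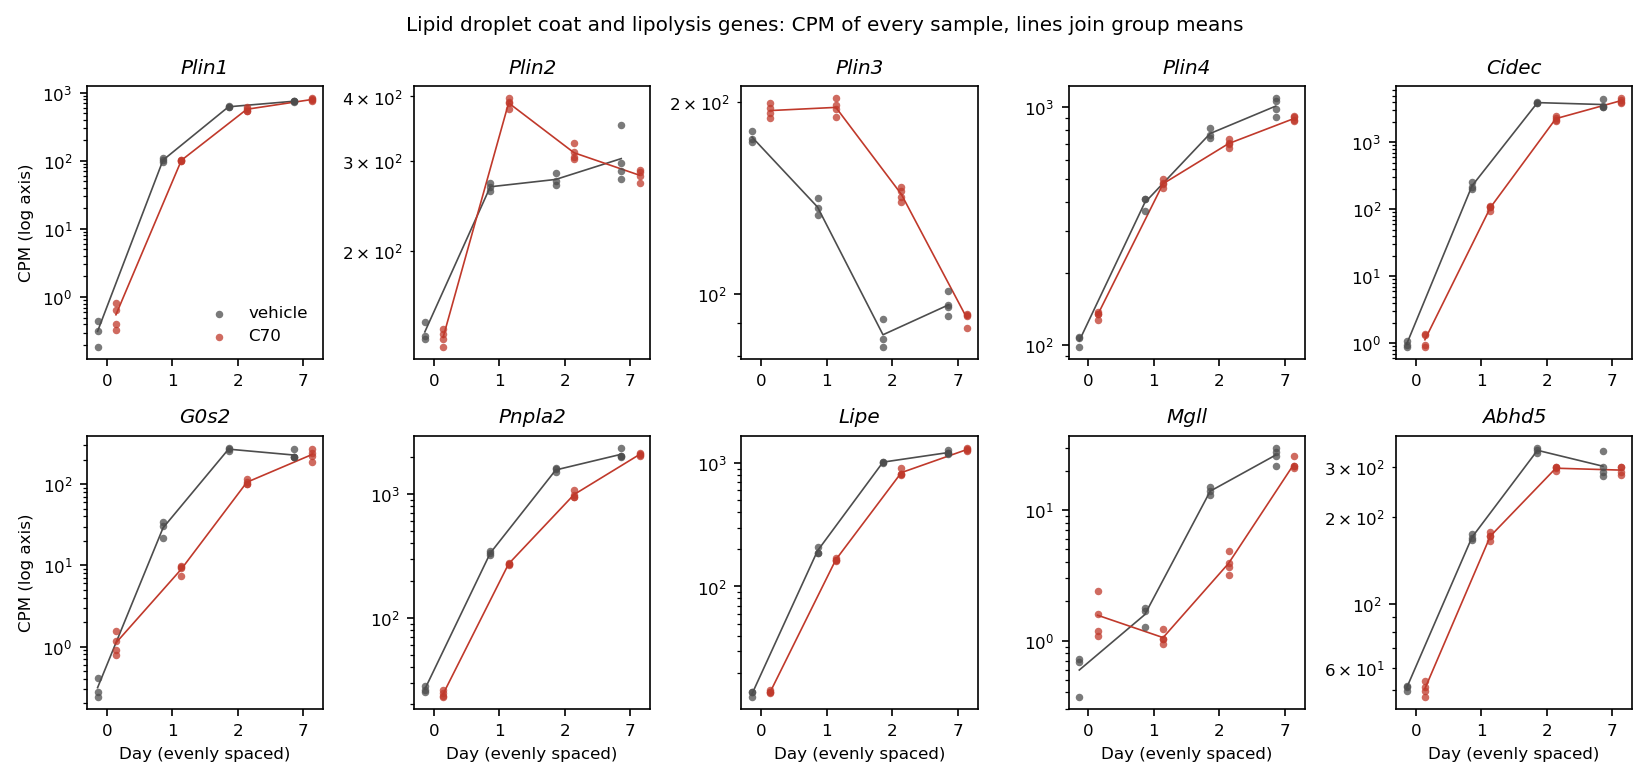
Levels of the 10 genes in CPM after TMM scaling (vertical log axes) by day (horizontal axes, days 0, 1, 2 and 7 evenly spaced), with 1 point per sample, grey for vehicle and red for C70, and lines through group means. At day 2 the red points of *G0s2*, *Cidec*, *Pnpla2*, *Mgll*, *Lipe*, *Plin4* and *Abhd5* lie below the grey. Those of *Plin3* and *Plin2* lie above (57.2% of all genes had no overlap at day 2). At day 7 the colors overlap for every gene but *Plin1* (29.3% of all genes had no overlap).

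Most of the group rose with differentiation in vehicle. From day 0 to day 1, 9 of the 10 genes rose and 1 fell, against 26.2% of all genes called higher and 27.9% called lower, and the median of the 10 log2 fold changes was 2.79 against 0.0082 for all genes. *Plin1* was at 0.443, 0.312 and 0.186 CPM at day 0 (11, 6 and 4 reads), at 101, 109 and 96.2 CPM at day 1 and at 609.6, 628 and 614 CPM at day 2. No day 0 sample came near any day 1 sample, and the log2 fold change from day 0 to day 1 was 8.29 (SE 0.27, adjusted P = 5.02e-30). *Cidec* rose by a log2 of 7.86 over the same day (0.963 ± 0.0939 to 224 ± 29.1 CPM, SD, n = 3 in each) and by a further 4.13 to day 2, when it reached 3933 ± 15.4 CPM. In bulk samples like these, fewer cells of a type and less RNA per cell cannot be told apart.

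The genes of lipolysis rose on both days. *Pnpla2* went from 26.5 ± 1.62 CPM at day 0 to 333 ± 10.5 at day 1 and 1564 ± 62.9 at day 2 (SD, n = 3 each), log2 steps of 3.65 and 2.23. *Lipe* rose by 3.84 and 2.38 on the log2 scale, to 1015 ± 11.7 CPM at day 2. *G0s2* rose by 6.54 and 3.22, from 6, 8 and 6 reads at day 0. *Mgll*, whose product takes the last fatty acid from monoglyceride, was late: it rose by 1.40 to day 1, when it stood at 1.58 ± 0.271 CPM, and by 3.14 to day 2. *Abhd5* was already at 50.9 ± 1.00 CPM in preadipocytes and rose by 1.74 and 1.00.

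The widely expressed coat genes behaved otherwise. *Plin3* fell at both steps, from 176 ± 3.54 CPM at day 0 to 137 ± 4.16 at day 1 and 86.3 ± 4.52 at day 2 (log2 fold changes −0.36 and −0.66, adjusted P = 8.04e-09 and 3.52e-14), and it was the 1 gene of the 10 called lower at either step. *Plin2* rose by 0.94 to day 1 and was not called from day 1 to day 2 (log2 fold change 0.048, 95% interval −0.07 to 0.166). From day 1 to day 2, 8 of the 10 genes rose and 1 fell, with backgrounds of 22.3% and 22%. From day 2 to day 7 *Plin4*, *Pnpla2* and *Mgll* were called, all higher (log2 fold changes 0.38, 0.42 and 0.92), against backgrounds of 26.6% higher and 26.7% lower, and leaving out replicate 1 of day 7 vehicle left that count at 3. A further 6 genes had an adjusted P under 0.05 with a change under the fold threshold, *Plin1*, *Plin2*, *Plin3* and *Lipe* higher and *G0s2* and *Abhd5* lower, while 72.6% of all genes had such a P whatever the fold. Consecutive steps share the samples of the day between them.

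Per kilobase of exon, *Plin3* was the most abundant of the 10 in vehicle preadipocytes at 46.5 CPM per kb, followed by *Plin2* at 39.6 and *Plin4* at 17.99. *Pnpla2* (8.78) and *Abhd5* (8.55) came next and overlapped in their samples, and *Lipe* stood at 2.30. *Cidec* (0.519), *G0s2* (0.358), *Mgll* (0.117) and *Plin1* (0.0674) were lowest, and the samples of the last 2 overlapped. By day 2 that order had turned over, with *Cidec* at 2119 CPM per kb, *Pnpla2* at 518, *G0s2* at 309 and *Lipe* at 172, then *Plin4* (134) and *Plin1* (133), which overlapped. *Plin2* (78.5), *Abhd5* (57.3), *Plin3* (22.8) and *Mgll* (2.76) followed without overlap. The order at day 7 was the same, from *Cidec* at 1983 CPM per kb to *Mgll* at 5.21, and there too only *Plin4* and *Plin1* overlapped.

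C70 given before differentiation was followed by called changes in both directions at days 1 and 2. *Cidec* and *G0s2* were lower on both days and *Pnpla2* and *Mgll* at day 2, *Plin3* was higher on both days and *Plin2* at day 1, and *Plin1* was not called at any day. At day 0, at the end of the C70 exposure, 3 of the 10 genes were called higher and 0 lower, against 5.89% and 3.09% of all genes. At day 1 the counts were 2 higher and 2 lower (13.6% and 7.8% of all genes), or 0 and 2 at a 1.5-fold threshold (7.48% and 1.64%), at day 2 they were 1 higher and 4 lower (16.9% and 13.6%), and at day 7 they were 0 and 0 (14.3% and 4.85%). The counts of higher genes at days 1 and 2 are near the share over all genes, so they mark no trait of the group. The median log2 fold change of the 10 genes was 0.19, −0.12, −0.24 and −0.025 at days 0, 1, 2 and 7, while the median over all genes stayed between −0.0060 and 0.0038. C70 and vehicle groups did not overlap for 34%, 48.2%, 57.2% and 29.3% of all genes at days 0, 1, 2 and 7.

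**Figure D2:**
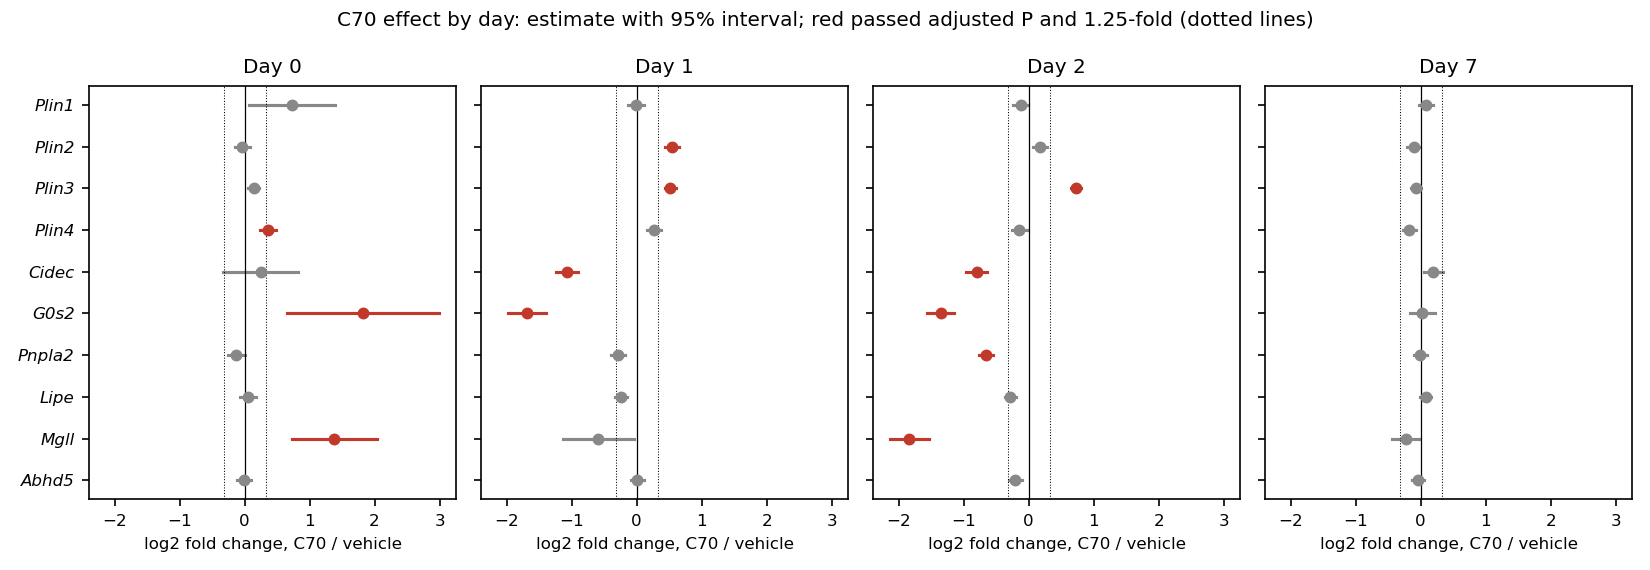
Log2 fold change of C70 over vehicle (horizontal axes) for each of the 10 genes at each day, with bars for the 95% interval of edgeR's quasi-likelihood fit and dotted lines at the fold threshold. Red genes passed the adjusted P and the fold threshold: 3 on day 0, 4 on day 1, 5 on day 2 and 0 on day 7.

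*G0s2* showed the widest turn. Its vehicle samples held 0.242, 0.416 and 0.279 CPM at day 0 and its C70 samples 1.18, 1.55, 0.794 and 0.903 CPM. These are 6 to 8 and 16 to 30 reads, and every C70 sample was above every vehicle sample (log2 fold change 1.82, SE 0.57, adjusted P = 0.0102 in edgeR's quasi-likelihood test). Without replicate 1 of day 0 vehicle the adjusted P was 0.0572. At day 1 the order was reversed, with vehicle at 30.6, 34.2 and 22 CPM and C70 at 7.40, 9.15, 9.85 and 9.59 CPM. At day 2 vehicle stood at 273, 258 and 276 CPM and C70 at 101, 115, 105 and 100.0 CPM. The C70 samples were below all vehicle samples at both days, and *G0s2* was 3.22-fold lower at day 1 (log2 fold change −1.69, SE 0.14, adjusted P = 3.43e-11) and 2.56-fold lower at day 2 (−1.35, SE 0.10, adjusted P = 2.54e-12). The groups overlapped at day 7 (267, 213, 213 and 218 CPM against 225, 271, 244 and 188 CPM), with a log2 fold change of 0.027 and a 95% interval from −0.166 to 0.220.

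*Mgll* was also higher with C70 at day 0 and lower at day 2. The day 0 difference rests on few reads (0.685, 0.727 and 0.371 CPM in vehicle against 1.18, 2.38, 1.09 and 1.60 CPM, log2 fold change 1.38, SE 0.32, adjusted P = 0.00114). At day 1 vehicle held 1.78, 1.69 and 1.27 CPM and C70 1.03, 0.935, 1.23 and 1.02 CPM, and the difference was not called (−0.59, SE 0.27, adjusted P = 0.0742). The groups did not overlap at either day, as for 34% of all genes at day 0 and 48.2% at day 1. The day 1 difference was called by DESeq2 (−0.60, adjusted P = 0.0332) and by a separate edgeR fit. It was also called in the main fit without replicate 2 of day 0 C70 (adjusted P = 0.0488). Neither limma-voom nor the separate fit with a replicate block called it. At day 2 *Mgll* was 3.57-fold lower with C70, the largest change among the 10 genes on that day, with 14.98, 13.1 and 13.9 CPM in vehicle against 3.68, 4.84, 3.17 and 3.94 CPM (log2 fold change −1.84, SE 0.15, adjusted P = 3.37e-12). Up to day 2 no sample held more than 333 *Mgll* reads. The day 7 levels were 29.9, 26.1, 27.98 and 21.9 CPM in vehicle and 21.7, 25.8, 21.7 and 21.2 CPM with C70 (−0.23, 95% interval −0.437 to −0.020, adjusted P = 0.0736).

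*Cidec*, the droplet fusion factor and the most abundant of the 10 from day 2 on, was not called at day 0 (log2 fold change 0.25, adjusted P = 0.604). At day 1 it was at 217, 256 and 199.6 CPM in vehicle and at 112, 107, 109.9 and 96.3 CPM with C70. At day 2 it was at 3919, 3930.0 and 3949.5 CPM in vehicle and at 2101, 2477, 2288 and 2192 CPM with C70. The lowest vehicle sample was far above the highest C70 sample on both days, and *Cidec* was 2.11-fold lower at day 1 (−1.08, SE 0.083, adjusted P = 6.77e-12) and 1.74-fold lower at day 2 (−0.80, SE 0.080, adjusted P = 7.67e-10). At day 7 the vehicle samples held 4385, 3489, 3433 and 3412 CPM and the C70 samples 4069.7, 4542, 4330.3 and 3921 CPM. The groups overlapped through vehicle replicate 1, and the log2 fold change of 0.20 (SE 0.074, adjusted P = 0.0331) did not pass the fold threshold; without that library it was 0.30 (adjusted P = 0.00016), also under the threshold.

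Among the lipases, ATGL passed both thresholds at day 2 and hormone-sensitive lipase did not; the difference between them was not tested. *Pnpla2* was at 1494, 1616 and 1581 CPM in vehicle and at 953, 1069.6, 987 and 951 CPM with C70, which put it 1.58-fold lower (log2 fold change −0.66, SE 0.053, adjusted P = 9.31e-12). *Lipe* was at 1001, 1023 and 1019.9 CPM against 806, 904, 819.5 and 808 CPM (−0.28, SE 0.044, adjusted P = 2.46e-06). Neither gene's groups overlapped, but the *Lipe* change was under the fold threshold, and *Lipe* would have been called (−0.32, adjusted P = 2.54e-07) without replicate 2 of day 2 C70. At day 1 both lipases were lower in every C70 sample than in every vehicle sample, by −0.29 for *Pnpla2* (SE 0.054, adjusted P = 7.06e-05) and −0.24 for *Lipe* (SE 0.045, adjusted P = 7.82e-05), again without passing the fold threshold. Over all genes, 48.2% had groups that did not overlap at day 1 and 57.2% at day 2. At day 0 *Pnpla2* (−0.13, adjusted P = 0.18) and *Lipe* (0.054, adjusted P = 0.639) were not called. *Abhd5*, the ATGL activator, had some of the smallest differences: its log2 fold change was −0.0081 on day 0, 0.013 on day 1, −0.21 on day 2 and −0.045 on day 7, and on day 2 its samples were at 343, 334 and 347 CPM in vehicle and between 289 and 299 CPM with C70 (adjusted P = 0.000771, under the fold threshold).

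The coat genes *Plin2* and *Plin3* went the other way. *Plin2* did not differ detectably at day 0 (log2 fold change −0.035, 95% interval −0.148 to 0.077). At day 1 it was at 272, 267 and 262 CPM in vehicle and at 389, 397, 379 and 389.6 CPM with C70, with no overlap (0.54, SE 0.054, adjusted P = 2.1e-09). At day 2 the values were 284, 274 and 269 CPM against 304, 302, 325 and 311 CPM, still without overlap but under the fold threshold (0.17, SE 0.054, adjusted P = 0.00859). *Plin3* was already at 179.9, 173 and 175 CPM in vehicle and 192, 188, 195 and 199 CPM with C70 at day 0, without overlap but under the fold threshold (0.14, SE 0.040, adjusted P = 0.0131), and was called higher at days 1 and 2. It was at 141, 136 and 133 CPM against 195, 202, 189 and 197 CPM at day 1 (0.52, SE 0.040, adjusted P = 1.16e-11) and at 91.4, 85.0 and 82.7 CPM against 145, 142, 147 and 139 CPM at day 2 (0.73, SE 0.041, adjusted P = 3.74e-15). Set beside the vehicle course, *Plin3* with C70 stood at 194 ± 4.38 CPM at day 0 and 196 ± 5.40 CPM at day 1 (SD, n = 4 each), and at 143 ± 3.32 CPM at day 2. At day 7 *Plin3* was at 101, 92.2, 95.3 and 96.1 CPM in vehicle and at 93.2, 92.8, 88.6 and 92.4 CPM with C70, and the groups overlapped (−0.067, 95% interval −0.146 to 0.011).

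*Plin1* and *Plin4*, the perilipins of fat cells, were not called at day 1, 2 or 7. *Plin1* at day 1 was at 99.4, 102, 104 and 100.2 CPM with C70 against 101, 109 and 96.2 CPM in vehicle (log2 fold change −0.011, 95% interval −0.132 to 0.109). At day 2 the C70 samples held 542, 621, 568 and 542 CPM against 609.6, 628 and 614 CPM (−0.12, 95% interval −0.234 to −0.005, adjusted P = 0.0751). The C70 sample at 621 CPM lay among the vehicle samples on that day, and *Plin1* was the 1 gene of the 10 whose groups overlapped there, while over all genes 57.2% had groups that did not overlap. At day 0 *Plin1* was near the limit of counting, with 4 to 11 reads in vehicle and 8 to 16 with C70 (0.73, SE 0.32, adjusted P = 0.152). *Plin4* was called at day 0, at 108, 98.0 and 106 CPM in vehicle against 127, 134, 137 and 135 CPM (0.36, SE 0.057, adjusted P = 2.43e-05), and was no longer past the fold threshold without replicate 2 of day 0 vehicle (0.32). Its log2 fold changes of 0.27, −0.14 and −0.17 at days 1, 2 and 7 passed the adjusted P (0.000266, 0.0303 and 0.0065) but not the fold threshold.

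The C70 effects were compared between days by interaction contrasts in the same fit, and consecutive contrasts share the day between them. From day 0 to day 1 the effect became more positive for 2 genes, *Plin2* (0.58) and *Plin3* (0.38), and more negative for 3, *G0s2* (−3.51), *Mgll* (−1.97) and *Cidec* (−1.32), against 8.68% and 5.23% of all genes. From day 1 to day 2 it became more negative for *Mgll* (−1.24), *Plin4* (−0.41), *Plin2* (−0.37) and *Pnpla2* (−0.37) and more positive for 0 genes, against 6.49% and 7.36%. *Cidec* (0.28, adjusted P = 0.0844) and *G0s2* (0.33, adjusted P = 0.198) did not pass that contrast; without replicate 3 of day 1 vehicle both did (0.36 and 0.50), which made the count 6 in place of 4. From day 2 to day 7 it became more positive for 5 genes, *Mgll* (1.61), *G0s2* (1.38), *Cidec* (0.99), *Pnpla2* (0.65) and *Lipe* (0.36), and more negative for 1, *Plin3* (−0.80), against 11.9% and 9.04%. Each of those 6 had an adjusted P of 1.98e-05 or lower in edgeR's quasi-likelihood test, and the 6 calls were unchanged in number without replicate 1 of day 7 vehicle.

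At day 7 none of the 10 genes was called by edgeR, by DESeq2 or by limma-voom. Under edgeR, 4 had an unadjusted P under 0.05 and 2 of them, *Plin4* and *Cidec*, an adjusted P under 0.05, against 48.2% and 41.1% of all genes. The 95% intervals bound what remained: the lower limits were −0.437 for *Mgll* and −0.276 for *Plin4*, the upper limits 0.347 for *Cidec* and 0.220 for *G0s2*, and the other 6 genes lay within −0.210 and 0.194. *Plin1* was the 1 gene of the 10 whose day 7 groups did not overlap, against 29.3% of all genes, at 749, 754, 727 and 751 CPM in vehicle against 800.4, 819, 788 and 760.0 CPM with C70 (0.088, adjusted P = 0.183). *Plin2* was at 352, 297, 286 and 276 CPM in vehicle against 285, 287, 279.7 and 271 CPM (−0.11, 95% interval −0.210 to −0.005, adjusted P = 0.0871). The vehicle sample at 352 CPM is replicate 1, and without it the *Plin2* value was −0.0225. *Pnpla2* was at 2093 ± 167 CPM in vehicle and 2085 ± 53.2 CPM with C70 (SD, n = 4 each) and *Lipe* at 1214 ± 47.2 and 1282 ± 23.9 CPM, with overlap in both. Without replicate 1 of vehicle the log2 fold change was 0.095 for *Plin1*, −0.038 for *Plin3*, −0.21 for *Plin4*, 0.12 for *G0s2*, 0.058 for *Pnpla2*, −0.16 for *Mgll* and 0.022 for *Abhd5*. That of *Lipe* was 0.11, with an adjusted P of 0.0185 against 0.117 with all samples, and under the fold threshold in both.

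Marker genes of the cell types moved alongside. At day 0 the 10 adipocyte markers summed to 1475 to 1527 CPM with C70 and 1292 to 1413 CPM in vehicle, and 2 of them were called lower and 1 higher. Most of that sum was *Lpl*, at 1399 CPM with C70 and 1237 CPM in vehicle (log2 fold change 0.18, not called). The 2 lower were *Pparg* (−0.50) and *Fabp4* (−0.41), and the 1 higher was *Cebpa* (0.39). At day 1 the 10 adipocyte markers summed to 5108 to 5346 CPM in vehicle and 3155 to 3281 CPM with C70, at day 2 to 19793 to 20671 and 11406 to 12486 CPM, and at day 7 to 24278 to 28951 and 26674 to 29446 CPM. Of the 10, 9 were called lower at day 1 and at day 2, and 3 were called higher at day 7. The 8 preadipocyte or fibroblast markers summed to 9049 to 10013 CPM in vehicle and 9899 to 10882 CPM with C70 at day 1, to 3921 to 4002 and 6587 to 6996 CPM at day 2, and to 2869 to 3825 and 6031 to 6822 CPM at day 7, when all 8 were called higher. Of these 8, 2 were called higher at day 0, 4 higher and 1 lower at day 1, and 7 higher at day 2. The part of the adipocyte and fibroblast markers in the changes described was not tested. Of 6 macrophage markers 2 were in the table, and their day 0 sum was 7.81 to 8.91 CPM in vehicle and 25.7 to 26.8 CPM with C70. Of these *Cd68*, also expressed in other cells, was at 1.31 CPM in vehicle and 19.1 CPM with C70 at day 0. The sum was also higher with C70 at day 1 (4.09 to 4.88 against 17.3 to 20.2 CPM) and day 2 (3.07 to 4.14 against 9.02 to 10.1 CPM), when both genes were called higher, and at day 7 it overlapped (4.39 to 6.34 against 4.02 to 5.90 CPM) and neither was called. Of 4 muscle markers *Des* was in the table, at 4.18 to 5.61 CPM in vehicle and 8.69 to 9.998 CPM with C70 at day 0, at 1.83 to 2.58 and 5.45 to 7.24 CPM at day 1 and at 3.48 to 3.64 and 4.76 to 5.39 CPM at day 2, called higher on each of these days. At day 7 it was at 40.6 to 50.9 and 35.3 to 43.6 CPM and was not called. The part of the macrophage and muscle markers in the changes described was not tested.

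All 10 genes together took 0.908% ± 0.0174 of the counts at day 2 in vehicle (SD, n = 3) and 0.636% ± 0.0341 with C70 (n = 4). At day 7 the shares were 0.911% ± 0.0489 and 0.923% ± 0.0341 (n = 4 each). At day 1 they had been 0.198% ± 0.00937 and 0.194% ± 0.00170, and at day 0 they were 0.0532% ± 0.00171 in vehicle and 0.0566% ± 0.000392 with C70, without overlap. *Cidec* and *Pnpla2* weighed most at day 2, with means of 3933 and 1564 CPM in vehicle and 2264 and 990 CPM with C70. *Plin2* and *Plin3* were higher with C70 on that day, so the share does not describe every gene.

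The 4 perilipins were also compared by their shares of their summed mRNA level. With each gene scaled by its exon length, *Plin3* and *Plin2* made up 44.7% and 38.0% of the 4 perilipins in vehicle preadipocytes and *Plin1* 0.0644%. At day 2 *Plin4* (36.4%) and *Plin1* (36.1%) led in vehicle and *Plin3* was down to 6.20% ± 0.317 (SD, n = 3), against 10.2% ± 0.330 (n = 4) with C70. Every C70 sample had a *Plin3* share of at least 9.94% and no vehicle sample more than 6.56%. At day 1 the *Plin1* share was 10.8% ± 0.472 in vehicle and 8.18% ± 0.310 with C70, and the *Plin2* share was 37.5% ± 0.892 and 41.5% ± 0.244. At day 7 the *Plin3* shares were 5.69% ± 0.293 and 5.65% ± 0.184 and the *Plin1* shares 35.9% ± 0.943 and 39.7% ± 0.416 (n = 4 each), and the groups overlapped for *Plin3* and not for *Plin1*. Without replicate 1 the vehicle shares were 5.60% ± 0.269 for *Plin3* and 35.8% ± 1.14 for *Plin1* (n = 3). The shares are given as descriptions and were not tested.

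**Figure D3:**
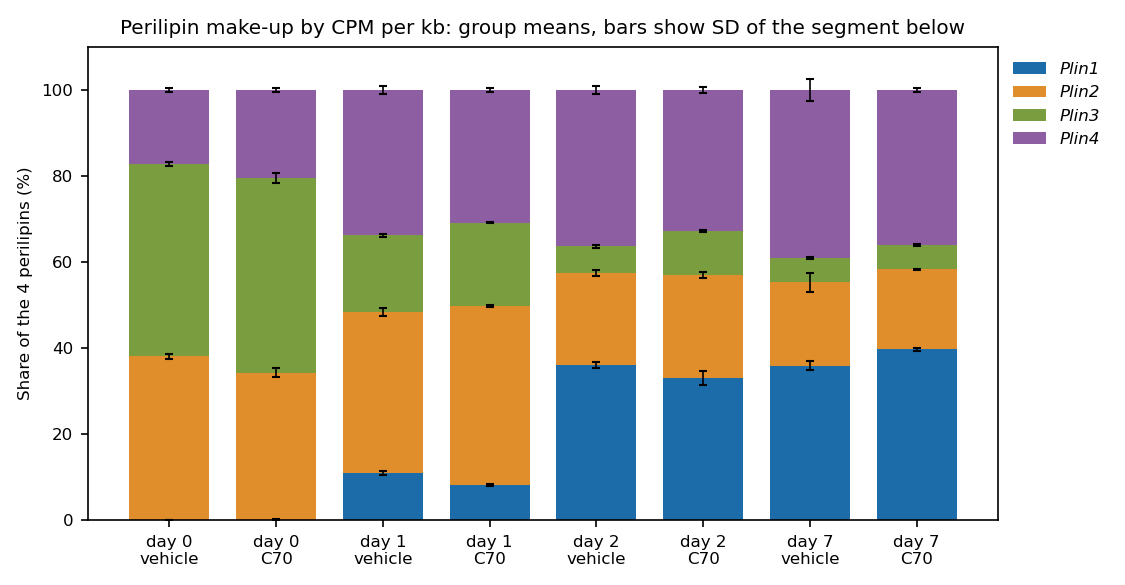
Share of each perilipin (percent, vertical axis) in the sum of CPM per kb of *Plin1*, *Plin2*, *Plin3* and *Plin4*, as stacked group means with 3 or 4 samples each; each error bar is the SD of the segment below it. The green *Plin3* segment falls from 44.7% to 6.20% between days 0 and 2 in vehicle and stands at 10.2% with C70 at day 2.

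Pairs of genes with opposing or successive roles were followed as log2 ratios (0.5 CPM added to each). The ratio of the inhibitor *G0s2* to its target *Pnpla2* was −5.06 ± 0.202 in vehicle (SD, n = 3) and −3.97 ± 0.246 with C70 (n = 4) at day 0. The order was the other way at day 1, with −3.53 ± 0.315 in vehicle and −4.85 ± 0.193 with C70, and at day 2, with −2.54 ± 0.0999 and −3.23 ± 0.0144. The groups did not overlap on any of the 3 days. At day 0 *G0s2* in vehicle, at 0.242 to 0.416 CPM, was below the 0.5 CPM added, which shrinks the difference of the ratios on that day. At day 7 it was −3.20 ± 0.0478 and −3.18 ± 0.189 (n = 4 each). The ratio of *Lipe* to *Pnpla2* at day 2 was −0.62 ± 0.0422 in vehicle and −0.25 ± 0.0140 with C70, with no overlap. The ratio of *Plin1* to *Plin2* on day 1 was −1.38 ± 0.0849 in vehicle and −1.94 ± 0.0496 with C70. On day 2 it was 1.16 ± 0.0540 against 0.87 ± 0.114, and on day 7 it was 1.31 ± 0.151 against 1.49 ± 0.0119. Day 7, with 4 against 4 samples, allowed an exact two-sided permutation test, whose smallest possible P is 0.0286. After adjustment over the 3 ratios of day 7, a ratio at that P stands at 0.0857 unless other ratios also have a small P. The C70 difference there was 0.19 for *Plin1* to *Plin2* (exact P = 0.0286, adjusted over the 3 ratios 0.0857, and 0.12 with an adjusted P of 0.171 without replicate 1 of vehicle, where 3 against 4 samples cannot go below an unadjusted P of 0.0571), 0.083 for *Lipe* to *Pnpla2* (exact P = 0.0571, adjusted 0.0857, and 0.055 with an adjusted P of 0.171 without that library) and 0.024 for *G0s2* to *Pnpla2* (exact P = 0.857, adjusted 0.857).

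Other genes of the droplet were examined as a list of 19, of which 14 were in the table; they include seipin, the factors of droplet budding and the last enzyme of triglyceride synthesis. At day 0, 0 of the 14 were called (median log2 fold change −0.038), while 5.89% of all genes were called higher and 3.09% lower. At day 1, 2 were higher and 3 lower with C70 (median 0.046; 13.6% and 7.8% of all genes), at day 2 these numbers were 3 and 6 (median −0.20; 16.9% and 13.6%), and by day 7 they were 1 and 1 (median −0.086; 14.3% and 4.85%). The counts of higher genes are near the share over all genes at days 1 and 2 and below it at days 0 and 7. *Dgat2*, which makes triglyceride from diglyceride, was at 98.4 ± 11.3 CPM in vehicle (SD, n = 3) and 46.8 ± 2.78 CPM with C70 (n = 4) on day 1, then at 672 ± 28.9 and 315 ± 20.9 CPM on day 2 (log2 fold changes −1.07 and −1.09, adjusted P = 2.28e-12 and 1.17e-13). *Tmem159*, now named *Ldaf1*, the partner of seipin in droplet formation, was higher at day 1 (0.49), at day 2 (1.06, from 6.10 ± 0.565 to 12.7 ± 0.685 CPM) and at day 7 (0.68, adjusted P = 1.55e-09). *Nsdhl*, an enzyme of cholesterol synthesis that also sits on droplets, was lower at day 1 (−0.37) and day 2 (−0.88, adjusted P = 5.44e-13). Seipin itself, *Bscl2*, was lower at day 2 (−0.57, adjusted P = 1.01e-06), as was *Fitm2*, a factor of droplet budding, at days 1 and 2 (−0.60 and −0.38).

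Genes that control lipolysis or handle its products were a further list of 31, of which 22 were in the table. At day 0, 3 were lower and 0 higher with C70 (median log2 fold change −0.0022). By day 1 there were 4 lower and 1 higher (median −0.047), by day 2 there were 9 lower and 2 higher (median −0.22), and day 7 had 4 lower and 2 higher (median 0.020). Of all genes, 3.09% were lower and 5.89% higher at day 0. On day 1 these shares were 7.8% and 13.6%, on day 2 they were 13.6% and 16.9%, and on day 7 they came to 4.85% and 14.3%. *Fabp4*, the fatty acid carrier of adipocytes, was lower from the first day (−0.41 at day 0 and −0.90 at day 1) and stood at 7490.4 ± 315 CPM in vehicle and 3789 ± 232 CPM with C70 at day 2 (−0.98, adjusted P = 3.28e-12). At day 7 its log2 fold change was −0.047 and was not called. *Fabp5*, a related carrier, was lower at days 1 and 2 (−1.11 and −0.78). Against this direction *Adcy3*, an adenylyl cyclase that makes the cyclic AMP of the lipolytic signal, was higher at day 1 (0.57), at day 2 (1.12, from 3.93 ± 0.399 to 8.52 ± 0.169 CPM) and at day 7 (0.42, adjusted P = 0.0229). Another adenylyl cyclase, *Adcy6*, was more abundant, at 208 CPM in vehicle at day 1 and 258 CPM at day 2. Its log2 fold changes of −0.26 at day 1, −0.24 at day 2 and 0.20 at day 7 were under the fold threshold. Within the same pathway a catalytic subunit of protein kinase A, *Prkaca* (−0.39), and a phosphodiesterase that breaks down cyclic AMP, *Pde3b* (−0.61), were lower at day 2. Another catalytic subunit, *Prkacb* (0.069), and another phosphodiesterase, *Pde4d* (0.23), were not called on that day, and *Pde4d* was lower at day 7 (−0.57). *Lipa*, the acid lipase of lysosomes, was lower at days 0 and 7 (−0.40 and −0.62), and *Ces1f*, a carboxylesterase, was higher at day 7 (0.79). The droplet and lipolysis control lists share none of the 10 genes, and the genes beyond the 3 of each list with the largest changes were picked for their roles after their values were seen.

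**Figure D4:**
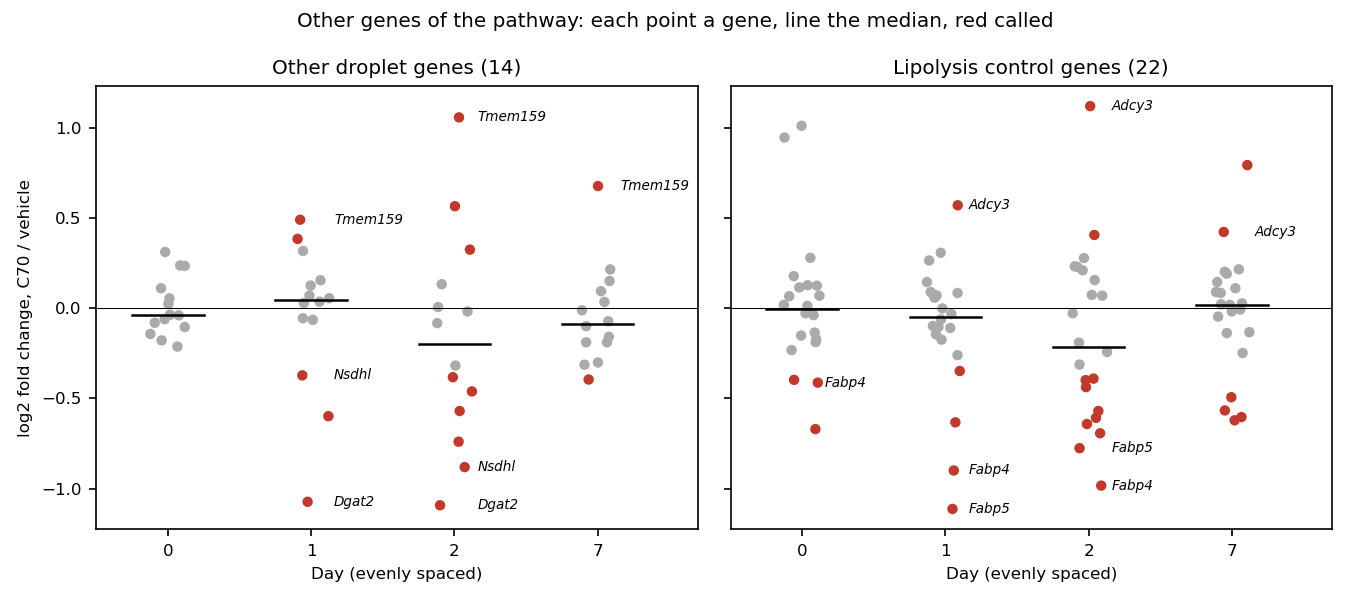
Log2 fold change of C70 over vehicle (vertical axes) by day for 14 other droplet genes (left) and 22 lipolysis control genes (right), with 1 point per gene, red where called, and a line at the median. Red points are most numerous at day 2, where 3 droplet genes were higher and 6 lower and 2 lipolysis control genes were higher and 9 lower.

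Courses over the 8 group means were compared with those of 6414 genes with a range of at least 1 on the log2 scale. The coat and lipolysis genes under study were left out of the ranking, so closer matches within that group are not listed. The genes most like *Plin1* were *Gphn* and *Abhd15* (Pearson's r = 0.9957 each) and *Pgd* (0.9956). For *Pnpla2* they were *Tmem186* (0.9984), *Pank3* (0.9979) and *Prss36* (0.9968), and for *Plin2* *Eif4a2* (0.9879), *Peli1* (0.9841) and *Rasd1* (0.9834). The 8 points share their libraries and the rise of differentiation, so these values describe likeness and carry no P value.

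On GRCm38, *Plin3* (chr17:56277476-56292873) and *Plin4* (chr17:56100591-56109803) lie on the minus strand of the same chromosome, and *Plin1* (chr7:79720218-79732903, minus), *Pnpla2* (chr7:141455198-141460743, plus) and *Lipe* (chr7:25379527-25398710, minus) share another. *Cidec* is at chr6:113424634-113435760 (minus), *Mgll* at chr6:88724412-88828360 (plus), *Plin2* at chr4:86648386-86670060 (minus), *Abhd5* at chr9:122351608-122381524 (plus) and *G0s2* at chr1:193272161-193273217 (minus). Genes on the opposite strand overlap *Plin4* (*Hdgfl2*), *G0s2* (*Lamb3*), *Lipe* (4732471J01Rik), *Abhd5* (A730085K08Rik) and *Mgll* (Gm26588 and Gm43937), and *Mgll* also overlaps Gm44005, Gm43999 and Gm44001 on its own strand, whose reads could be shared whatever the strand setting. The libraries were strand-specific, but the strand setting of the counting is not given in the sources used here, so reads of overlapping partners could have been counted for these 5 genes.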

How the data were processed

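RNA-seq was carried out by the authors on strand-specific libraries of 3T3-L1 total RNA. The deposited file holds whole-number counts per Ensembl gene for 29 samples. Its name calls them normalized, but the values are whole numbers whose totals differ between samples, and they were treated as raw counts. Per the labels, STAR 2.7.2a, edgeR 3.26.8 and GRCm38 were used upstream, and the counting program, its strand setting and the filter that left 11959 genes are not given in the sources used here. Depth was 16320275 to 24037170 counts per library. Symbols and exon lengths came from a GENCODE annotation of GRCm38 (all 11959 identifiers matched) and promoters from RefSeq (GRCm38.p6).

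Counts were scaled by TMM and fitted with edgeR 4.0.16 (R 4.3.3) as 8 group means over all 29 samples, and contrasts were tested by the quasi-likelihood F test with Benjamini-Hochberg adjustment over all genes. Standard errors and 95% intervals are those of the contrast in that fit. On simulated counts for day 2, with 200 genes changed, 96% of 1.5-fold and 99% of 2-fold changes were recovered and 4 other genes were called. The simulation gave all genes the same spread and, apart from the 200, each gene the same expected share in every group. The measured counts differ in both, so these rates need not hold for them. Alternatives were DESeq2 1.42.0 and limma-voom 3.58.1, other scaling, a filter on low genes, separate fits, a replicate block, other fold thresholds and leaving out each library. Ratios were tested by exact permutation at day 7.

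All 10 genes are named at every day; from the droplet and lipolysis control lists, the 3 called genes with the largest C70 log2 fold change at any day are named, and others are identified as chosen after their values were seen. The genes, the lists and the tests were chosen with earlier results of these data known. Replicates of the same group differed by more than counting noise in all 39 pairs (chi-square per degree of freedom 2.67 to 47.1). Protein sequences were not used here.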

Additional observations from a re-analysis of the deposited data

Results flagged for a closer look

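Of 65 groups of 4 samples, 7 held a sample far from the others by Dixon's criterion, which flags about 1 in 20 groups by chance (3.2 expected). At day 7, replicate 1 of vehicle was high for *Cidec* (4385 CPM) and *G0s2* (267 CPM); it is the library that stood apart over all genes. In day 7 C70, *Plin3* was low in replicate 3 (88.6 CPM) and *Mgll* high in replicate 2 (25.8 CPM). In day 2 C70, replicate 2 was high for *Lipe* (904 CPM) and for the log2 ratio of *Plin1* to *Plin2* (1.04), and in day 1 C70 replicate 3 was high for that ratio (−1.86).

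The C70 effect differed between consecutive days, by the interaction contrast in edgeR's quasi-likelihood fit, in 15 cases. Between days 0 and 1 the log2 difference was 0.58 for *Plin2*, 0.38 for *Plin3*, −1.32 for *Cidec*, −3.51 for *G0s2* and −1.97 for *Mgll*. Between days 1 and 2 it was −0.37 for *Plin2*, −0.41 for *Plin4*, −0.37 for *Pnpla2* and −1.24 for *Mgll*. Between days 2 and 7 it was −0.80 for *Plin3*, 0.99 for *Cidec*, 1.38 for *G0s2*, 0.65 for *Pnpla2*, 0.36 for *Lipe* and 1.61 for *Mgll*.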

How the results depend on the processing

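No called gene value reversed under any alternative. Of 3590 gene values over 100 results, 3561 kept direction and side of the thresholds. Of the rest, 2 fell below them, 7 rose past them and 20, all uncalled, changed sign. Most of the 3590 come from leaving out 1 of the 29 libraries, often one outside the groups compared. Such a library enters a result only through the shared scaling, spread and adjustment, so those values could hardly move and the tally overstates stability. At 1.5-fold the number of genes called was 2 at day 1 (both lower, with *Plin2* and *Plin3* no longer called), 1 from day 2 to day 7 in vehicle, and 3 and 1 for the differences of the C70 effect between days 0 and 1 and days 1 and 2, against 9.12%, 32.3%, 5.59% and 5.33% of all genes. At that threshold it was 2 at day 0 (*Plin4* lost), against 3.28% of all genes. From day 0 to day 1 in vehicle it was 9 (*Plin3* lost), against 34%. For the difference of the C70 effect between days 2 and 7 it was 5 (*Lipe* lost), against 9.48%. With no fold threshold it was 7 at day 1, 9 at day 2, 2 at day 7 and 9 from day 2 to day 7 in vehicle, against 40.7%, 50.7%, 41.1% and 72.6% of all genes. Sign changes of uncalled values were 0.0084 for *Plin1* at day 1 and 0.020 for *Pnpla2* at day 7 under the filter on low genes, and −0.019 for *Plin2* from day 1 to day 2 in vehicle under upper quartile scaling; the cause was not tested. Leaving out each library in turn, *Abhd5* ranged from −0.041 to 0.022 at day 0, from −0.0054 to 0.032 at day 1, from −0.079 to 0.022 at day 7 and from −0.0090 to 0.054 for the difference between days 0 and 1, *Plin1* from −0.052 to 0.040 at day 1, *G0s2* from −0.052 to 0.12 and *Pnpla2* from −0.032 to 0.058 at day 7, *Plin4* from −0.083 to 0.0062 for the difference between days 2 and 7, and the day 7 ratios from −0.041 to 0.10 for *G0s2* to *Pnpla2*, from 0.055 to 0.10 for *Lipe* to *Pnpla2* and from 0.12 to 0.23 for *Plin1* to *Plin2*. That filter removes *Mgll*, which was therefore not tested under it.

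Samples with the same number did not deviate together (r from −0.205 to 0.214, own number best in 3 of 13), so the numbers are not treated as pairs. A separate fit with a replicate block called 5 genes in place of 4 for the difference of the C70 effect between days 1 and 2 (*G0s2* added). It left the other counts as in the main fit, and gave *Abhd5* values of 0.016 at day 0 and −0.0002 at day 1. Compared with the separate fit without the block, the C70 count at day 1 was 4 in place of 5 (*Mgll* not called). Day 0 values of *Plin1*, *Cidec*, *G0s2* and *Mgll* rest on 4 to 46 reads a sample, which limits their precision.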
